A study of Mus musculus with 18 samples.

Results

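Expression of 10 genes of brain endothelium and the blood-brain barrier was followed across 18 RNA-seq libraries of mouse substantia nigra. They were taken as the rows of the deposited table named Cldn5, Pecam1, Cdh5, Flt1, Kdr, Tek, Slco1a4, Slc2a1, Abcb1a and Mfsd2a, which gave 10 of 55270 genes. All 10 passed the filter on low values, beside 19443 genes in all. The libraries came from 3 groups of 6 wild-type mice, aged 3 months. Intact mice have no treatment named in the labels. Adeno-associated virus (AAV) was used in the other groups, to overexpress green fluorescent protein in AAV-GFP mice and SIRT3 in AAV-SIRT3 mice. SIRT3 is an enzyme of mitochondria that removes acetyl groups from proteins. Tissue was taken about 1 month after AAV. The labels used here name no promoter, serotype, dose or sex, and they do not say whether intact mice were injected, so the virus and the surgery cannot be told apart in a comparison with them.

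Sirt3 itself, the gene the labels say was delivered, averaged 1937 ± 79.4 normalised reads under the SIRT3 virus, 1775 ± 92.4 under the GFP virus and 1824 ± 66.3 without virus (mean ± SD of 6 libraries). The ranges of the groups overlapped, and the difference between AAV-SIRT3 and AAV-GFP, 0.13 on the log2 scale (SE 0.042), had a limma adjusted p of 0.183. The species of the delivered sequence is not given, so its reads may not be counted on the mouse gene, and the groups below are those of the labels. Depth ran from 47182529 to 64728587 reads on genes per library. Summed levels of 6 dopaminergic neuron genes ran from 19304 to 36268 normalised reads over the libraries, so markers of the labelled region were present in each. Genes of neighbouring tissue varied between libraries as well. Thalamus genes summed to 37861 to 77147 in intact libraries, 64139 to 74316 in AAV-GFP and 63487 to 82449 in AAV-SIRT3. In the same order, anterior pituitary genes summed to 740 to 5425, 251 to 698 and 239 to 805, and choroid plexus genes to 1660 to 50270, 1320 to 44543 and 1237 to 2849. The part of these differences in the results below was not tested.

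Endothelial cells line brain capillaries and form the blood-brain barrier. Tight junctions, with claudin-5 as their main claudin, close the cleft between neighbouring cells, VE-cadherin and PECAM-1 hold the cells together, and VEGF and angiopoietin receptors on their surface govern vessel growth and stability. Transporters then decide what crosses the cell itself, bringing in glucose and lipids and pumping drugs and organic anions out.

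Promoter sequences of 4 of the genes are shown as examples. Kdr, Cldn5 and Flt1 are among the junction and receptor genes, which all varied together between libraries, as described below, while Mfsd2a varied the least with the others. Each is the 250 bases before the RefSeq transcription start (GRCm38.p6), written 5′ to 3′ on the strand of the gene. Capitals mark the letters AGGAAG and ACGTG on either strand. AGGAAG is a form of the site read by ETS factors such as ERG and FLI1, and ACGTG a form of the hypoxia response core. Other forms of these sites were not searched and are not marked. The windows are chr5:75978456-75978705 (minus strand) for Kdr, chr16:18776597-18776846 (plus strand) for Cldn5, chr5:147726012-147726261 (minus strand) for Flt1 and chr4:122961189-122961438 (minus strand) for Mfsd2a.
Kdr: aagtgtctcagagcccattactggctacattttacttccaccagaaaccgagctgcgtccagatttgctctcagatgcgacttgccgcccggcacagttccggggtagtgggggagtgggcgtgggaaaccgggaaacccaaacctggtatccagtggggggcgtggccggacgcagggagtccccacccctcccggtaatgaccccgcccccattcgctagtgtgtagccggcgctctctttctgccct
Cldn5: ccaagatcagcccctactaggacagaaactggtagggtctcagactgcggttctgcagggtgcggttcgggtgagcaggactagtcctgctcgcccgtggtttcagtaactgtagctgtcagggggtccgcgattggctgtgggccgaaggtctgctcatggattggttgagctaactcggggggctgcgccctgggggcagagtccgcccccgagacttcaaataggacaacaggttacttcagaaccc
Flt1: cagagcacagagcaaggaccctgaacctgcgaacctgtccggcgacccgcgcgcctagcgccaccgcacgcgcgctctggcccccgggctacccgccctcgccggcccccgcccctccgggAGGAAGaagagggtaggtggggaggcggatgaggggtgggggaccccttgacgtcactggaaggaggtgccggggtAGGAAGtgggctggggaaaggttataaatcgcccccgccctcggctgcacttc
Mfsd2a: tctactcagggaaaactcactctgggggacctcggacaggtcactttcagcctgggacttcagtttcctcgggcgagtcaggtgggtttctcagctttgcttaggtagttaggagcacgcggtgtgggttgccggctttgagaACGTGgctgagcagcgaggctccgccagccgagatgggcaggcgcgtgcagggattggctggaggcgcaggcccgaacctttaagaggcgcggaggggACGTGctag

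RefSeq gave a promoter for 8 of the 10 genes, and AGGAAG occurred in 3 of the 8, against 29.5% of 32851 mouse promoters of the same length. The window of Abcb1a, among those 3, ends at a RefSeq start 92986 bases upstream of the gene start in the annotation used for exon lengths, and without it the count is 2 of 7. Flt1 held it at 129 to 124 and at 53 to 48 bases before the start. ACGTG occurred in 2 of the 8, Mfsd2a and Slc2a1, against 16.6% of all promoters. In Mfsd2a it lay at 107 to 103 and at 9 to 5 bases before the start, and in Slc2a1 at 36 to 32. The letters AGATAA, bound by GATA factors, were in none of the 8, against 9.99% of all promoters. The letters ATCAAAG, bound by TCF and LEF factors, were in none of the 8 either, against 3.21% of all promoters. A match is a description of the letters and no site, and its absence from this window says nothing about the factor. The Kdr and Cldn5 windows held none of these 4 strings of letters, and other forms of the sites were not searched.

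Divided by exon length, Slc2a1, the glucose transporter GLUT1, had the highest level of the 10 genes in intact substantia nigra, at 1360 ± 141 normalised reads per kb (SD, n = 6). Cldn5 followed at 713 ± 65.1 per kb, and Mfsd2a, which carries lysophospholipids with docosahexaenoic acid, at 488 ± 64.3. Slco1a4, an organic anion transporter, stood at 394 ± 28.3 per kb, with a range that overlapped that of Mfsd2a. Abcb1a, the drug efflux pump P-glycoprotein, had 277 ± 23.1 per kb. The receptors and adhesion genes lay lower. Flt1 had 189 ± 27.1, Tek 162 ± 23.0, Pecam1 160 ± 20.1 and Cdh5 158 ± 14.7 normalised reads per kb, and each of these ranges overlapped the next. Kdr was lowest at 75.4 ± 8.63 per kb and below the range of Cdh5. In the AAV-SIRT3 libraries the order of the means differed at the top, with Mfsd2a at 575 ± 70.7 per kb above Cldn5 at 546 ± 134, although their ranges overlapped. Exon length here is that of all annotated exons of a gene merged, 13.5 kb for Flt1 and 9.03 kb for Kdr. It can exceed the length of the transcripts present, so the order may depend on this choice. The plot of levels per exon length shows the order in all groups.

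**Figure D1:**
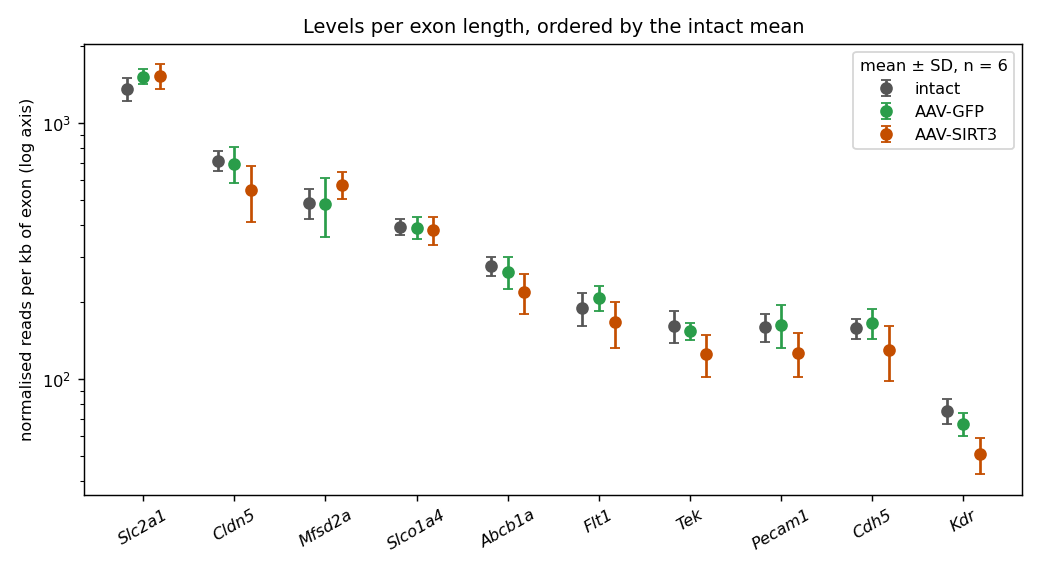
Level of each of the 10 genes in normalised reads per kb of exon, on a log axis, as mean ± SD of 6 libraries in each group. Slc2a1 is highest and Kdr lowest in every group, and Mfsd2a stands above Cldn5 in AAV-SIRT3 alone.

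Compared with intact substantia nigra, 5 of the 10 genes fell in AAV-SIRT3 libraries at a limma adjusted p under 0.05: Kdr, Cldn5, Tek, Abcb1a and Pecam1. None rose. Over all 19443 genes tested, 21.7% were called in that comparison, 10.3% as lower and 11.3% as higher. The members' median log2 difference was -0.33, beside -0.0049 over all genes. Removing the trend of each library with exon length and GC content changed the split over all genes from 2206 higher and 2008 lower to 3413 higher and 1354 lower, and with it 4 of the 5 genes passed, Pecam1 being the exception. Without AAV-GFP replicate 2 and AAV-SIRT3 replicates 5 and 6, the 3 libraries whose values fell most with exon length, 1 gene passed, Kdr. That fit called 2929 of all genes tested. In bulk tissue, fewer endothelial cells and less RNA per cell cannot be told apart.

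Among the growth factor receptors, Kdr (VEGF receptor 2, the main signalling receptor for VEGF-A) changed the most. It ranged from 582 to 776 normalised reads in intact libraries with a median of 680, from 536 to 711 in AAV-GFP with a median of 589, and from 369 to 579 in AAV-SIRT3 with a median of 466. Every AAV-SIRT3 library lay below every intact one, which 4.32% of all genes tested also showed in that direction, while AAV-GFP overlapped both groups. Kdr fell by 0.58 on the log2 scale (SE 0.10, 95% interval -0.78 to -0.37, adjusted p = 0.000936) against intact. That difference passed in all 30 alternatives, between -0.64 and -0.45.

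Tek, the receptor TIE2 for angiopoietins, ranged from 611 to 938 normalised reads in intact libraries (median 770), 671 to 820 in AAV-GFP (717) and 481 to 762 in AAV-SIRT3 (563). Only 3 of the 36 pairs of an AAV-SIRT3 and an intact library had the higher value in AAV-SIRT3. The fall against intact was 0.37 on the log2 scale (SE 0.11, adjusted p = 0.0154). Flt1 encodes VEGF receptor 1, which binds VEGF tightly and signals weakly. Its values ran from 1996 to 3059 in intact libraries (median 2567), 2419 to 3303 in AAV-GFP (2756) and 1794 to 2848 in AAV-SIRT3 (2110). Flt1 differed by -0.19 (95% interval -0.43 to 0.036, adjusted p = 0.223) between AAV-SIRT3 and intact, and the groups overlapped.

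In the junction and adhesion genes the AAV-SIRT3 libraries spread widely. Cldn5, claudin-5 of the tight junction, ranged from 874 to 1162 normalised reads in intact libraries (median 1009), 763 to 1215 in AAV-GFP (989) and 590 to 1032 in AAV-SIRT3 (722). AAV-SIRT3 replicates 1 and 2 lay inside the intact range and the other 4 below it. Cldn5 fell by 0.42 (SE 0.13, adjusted p = 0.0237) against intact. It did not pass without AAV-SIRT3 replicate 5 (-0.35, adjusted p = 0.0634), without AAV-SIRT3 replicate 6 (-0.35, 0.0605) or without intact replicate 4 (-0.38, 0.0573).

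Pecam1 (PECAM-1, CD31), an adhesion molecule of endothelium, platelets and leukocytes, ran from 809 to 1200 normalised reads in intact libraries (median 982), 800 to 1301 in AAV-GFP (1033) and 624 to 1027 in AAV-SIRT3 (754). Its fall of 0.35 against intact (SE 0.12, adjusted p = 0.0470) stood just inside the threshold and did not pass with edgeR (adjusted p = 0.0546). Over the fits that each left out 1 library, Pecam1 passed in 6 of 18, between -0.43 and -0.29. Cdh5 (VE-cadherin, the cadherin of endothelial adherens junctions) ranged from 575 to 750 in intact libraries (median 665), 581 to 811 in AAV-GFP (714) and 397 to 764 in AAV-SIRT3 (542). The highest AAV-SIRT3 library exceeded every intact one. The difference of -0.31 (95% interval -0.56 to -0.050) had an adjusted p of 0.0799, and without AAV-SIRT3 replicate 1 it was -0.41 (adjusted p = 0.0131).

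**Figure D2:**
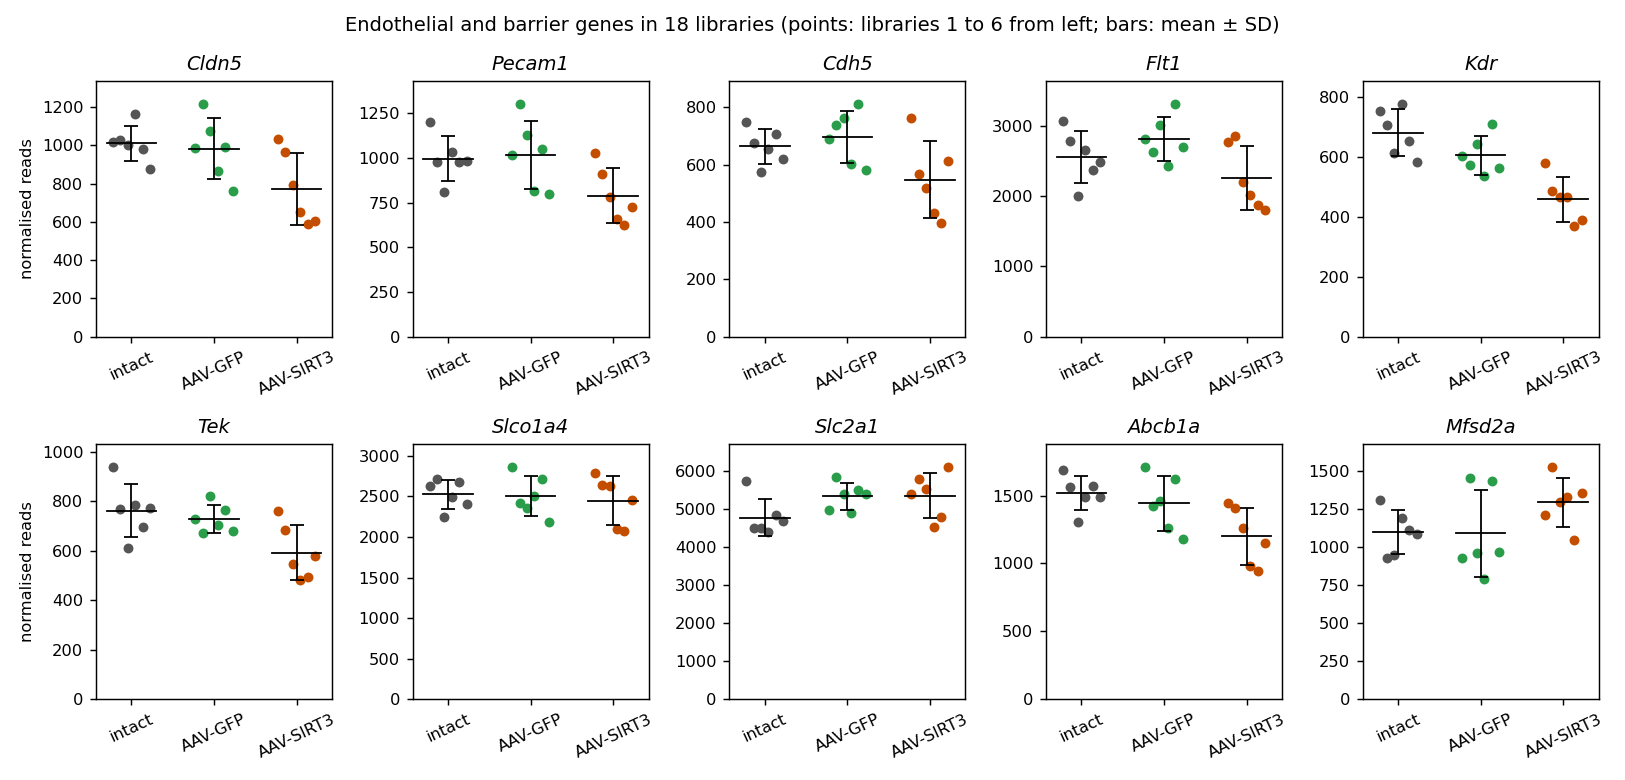
Normalised reads of the 10 genes in each library (points, replicates 1 to 6 from left to right within a group) with the mean ± SD of 6 libraries. The AAV-SIRT3 points of Kdr lie below all intact points, and those of every other gene overlap the intact points. Those of Cldn5 spread from 590 to 1032. For all 10 genes the AAV-SIRT3 and AAV-GFP points overlap.

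Of the 4 transporters, Abcb1a alone passed the test. It ranged from 1308 to 1688 normalised reads in intact libraries (median 1529), 1178 to 1710 in AAV-GFP (1440) and 945 to 1446 in AAV-SIRT3 (1203). Abcb1a fell by 0.36 (SE 0.10, adjusted p = 0.0178) against intact, with 2 of 36 library pairs higher in AAV-SIRT3. Reads shared with its close copy Abcb1b may be split between them, depending on the counting. Slco1a4, at 2242 to 2715 in intact libraries (median 2560), 2186 to 2863 in AAV-GFP (2463) and 2076 to 2785 in AAV-SIRT3 (2544), held almost the same median in all groups. Its difference between AAV-SIRT3 and intact was -0.051 (95% interval -0.21 to 0.11, adjusted p = 0.671), so a fall as large as that of Abcb1a lies outside the interval.

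Slc2a1 had higher means under both viruses. It ran from 4385 to 5726 normalised reads in intact libraries (median 4592), 4887 to 5838 in AAV-GFP (5385) and 4522 to 6095 in AAV-SIRT3 (5446). The highest intact value, in replicate 1, stood apart from the other 5, of which the highest was 4822. Against intact the difference was 0.16 in AAV-SIRT3 (SE 0.070, adjusted p = 0.0998) and 0.16 in AAV-GFP (SE 0.070, adjusted p = 0.205), and these comparisons share the intact libraries. Without intact replicate 1, or without AAV-SIRT3 replicate 4, Slc2a1 passed as higher in AAV-SIRT3 (0.22, adjusted p = 0.0207, and 0.21, 0.0294). Mfsd2a spread from 928 to 1310 in intact libraries (median 1102), 791 to 1453 in AAV-GFP (965) and 1049 to 1528 in AAV-SIRT3 (1311). In AAV-GFP, replicates 2 and 5 stood at 1453 and 1438 and the other 4 below 1000, so the median lay below the mean of 1090. Mfsd2a differed by 0.24 (95% interval -0.028 to 0.51, adjusted p = 0.193) between AAV-SIRT3 and intact.

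AAV-SIRT3 set against AAV-GFP compares libraries that both received a virus. There 0 of the 10 genes passed with limma and 0 with edgeR, beside 22 of 19443 genes (0.113%) called by limma. DESeq2 called 1, Kdr (-0.40, adjusted p = 0.0186), beside 304 of all genes tested. At an unadjusted p under 0.05, 8 of the 10 genes were counted (15.2% of all genes), 7 as lower (7.12% of all genes) and Mfsd2a as higher (8.13%). Kdr differed by -0.41 (SE 0.10, 95% interval -0.61 to -0.20, adjusted p = 0.105) with 3 of 36 library pairs higher in AAV-SIRT3. It passed without AAV-GFP replicate 2 (-0.42, adjusted p = 0.0316) and without AAV-SIRT3 replicate 1 (-0.48, adjusted p = 0.0488). Those fits called 861 and 32 of all genes tested.

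The other junction and receptor genes differed from AAV-GFP by similar amounts. Cdh5, Pecam1 and Cldn5 each differed by -0.37 (limma adjusted p = 0.181, 0.184 and 0.199), Tek by -0.32 (0.182) and Flt1 by -0.34 (95% interval -0.57 to -0.11). Of the transporters, Abcb1a differed by -0.27 (adjusted p = 0.225) and Mfsd2a by 0.28 (0.311). Slco1a4 differed by -0.038 (95% interval -0.19 to 0.12) and Slc2a1 by -0.00028 (95% interval -0.15 to 0.14). This comparison and the one with intact share the AAV-SIRT3 libraries. The AAV-GFP means of Flt1 and Cdh5, 2812 ± 311 and 697 ± 91.2, stood above their intact means of 2555 ± 366 and 663 ± 61.9. The median over the 10 genes was -0.33, beside -0.0041 over all genes.

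The virus control was then set beside intact tissue. No member passed with limma, edgeR or DESeq2 for AAV-GFP against intact, where 358 genes (1.84%) were called by limma, and at an unadjusted p under 0.05 Slc2a1 alone was counted, beside 19.1% of all genes. Kdr differed by -0.17 (95% interval -0.38 to 0.037, adjusted p = 0.371) and Flt1 by 0.14 (95% interval -0.087 to 0.37, adjusted p = 0.512). The other 7 genes lay between -0.082 (Abcb1a) and 0.067 (Cdh5). The median was -0.025 over all 10 genes, beside 0.00074 over all genes tested. Intervals this wide do not show that the groups were alike.

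**Figure D3:**
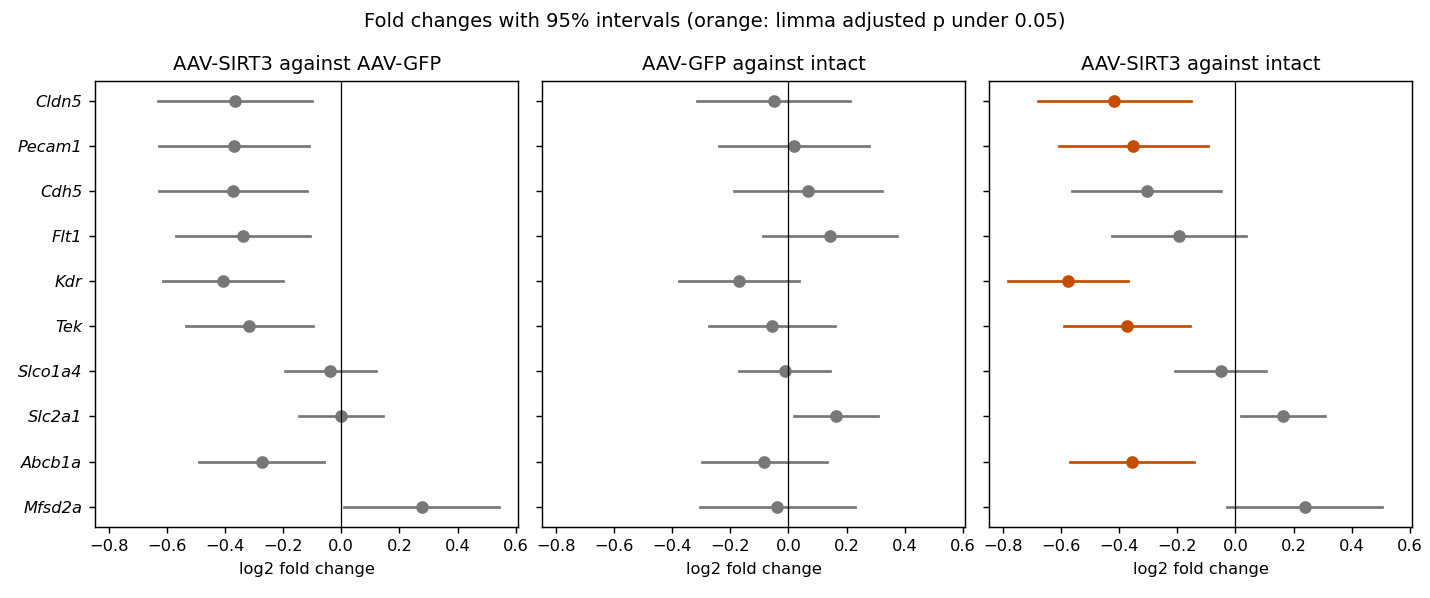
Log2 fold change of each gene with its 95% interval from limma in the 3 comparisons; orange marks an adjusted p under 0.05. In AAV-SIRT3 against intact 5 genes are marked, from Kdr at -0.58 to Pecam1 at -0.35, and none is marked in the other comparisons.

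As a median over these genes, the 6 AAV-SIRT3 libraries were spread more widely than the libraries of the other groups, a difference that was not tested. The SD of a member's log2 values within a group had a median of 0.26 over the 10 genes in AAV-SIRT3, 0.15 in intact and 0.17 in AAV-GFP. Mfsd2a was an exception, with an SD of 0.18 in AAV-SIRT3, 0.19 in intact and 0.36 in AAV-GFP. For Pecam1 the SD was 0.27 in both virus groups. Over tested genes with a mean above 300, the medians were 0.092, 0.086 and 0.10. As a mean over Cldn5, Pecam1, Cdh5, Flt1, Kdr and Tek, AAV-SIRT3 replicates 3, 4, 5 and 6 stood -0.37, -0.56, -0.68 and -0.49 from the intact mean on the log2 scale. Replicates 1 and 2 stood at 0.035 and -0.14, inside the intact range of -0.22 to 0.20. Of the 10 genes, 6, 7, 8 and 6 lay below the lowest intact library in replicates 3 to 6, and 1 and 2 in replicates 1 and 2. Above the highest intact library lay 2 genes in each of replicates 1, 2 and 6, and 1 in replicate 4. The share of all genes outside the intact range in each library was not counted, so nothing particular to these genes is read from the counts. AAV-GFP replicates 4 and 6 stood at -0.19 and -0.20, also inside the intact range of the mean. In them 4 and 5 of the genes lay below their lowest intact value, beside 1 in AAV-GFP replicate 2. Above their highest intact value lay 2, 4, 1 and 4 genes in AAV-GFP replicates 1, 2, 3 and 5.

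Other measures moved with some of these libraries. Values fell with exon length in AAV-SIRT3 replicates 5 and 6, by 0.022 and 0.032 log2 units per doubling of length. In AAV-GFP replicate 2 they fell by 0.032, and its mean over the 6 junction and receptor genes was 0.077 above intact. In AAV-SIRT3 replicates 3 and 4 they rose with length, by 0.012 and 0.0066. The 11 pericyte genes summed to 14120, 11852 and 12135 normalised reads in AAV-SIRT3 replicates 3, 4 and 5 and to 13668 and 13819 in AAV-GFP replicates 4 and 6, all below the intact range of 14168 to 16731. The other AAV-SIRT3 and AAV-GFP libraries lay within it, and all 11 genes were above 0 in every group. Hemoglobin and Alas2 reads, a sign of blood left in the tissue, summed to 362, 583 and 600 in AAV-SIRT3 replicates 2, 3 and 5. They summed to 1448 in AAV-GFP replicate 4 and to at most 179 in intact libraries. Their part in the members' values was not tested.

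**Figure D4:**
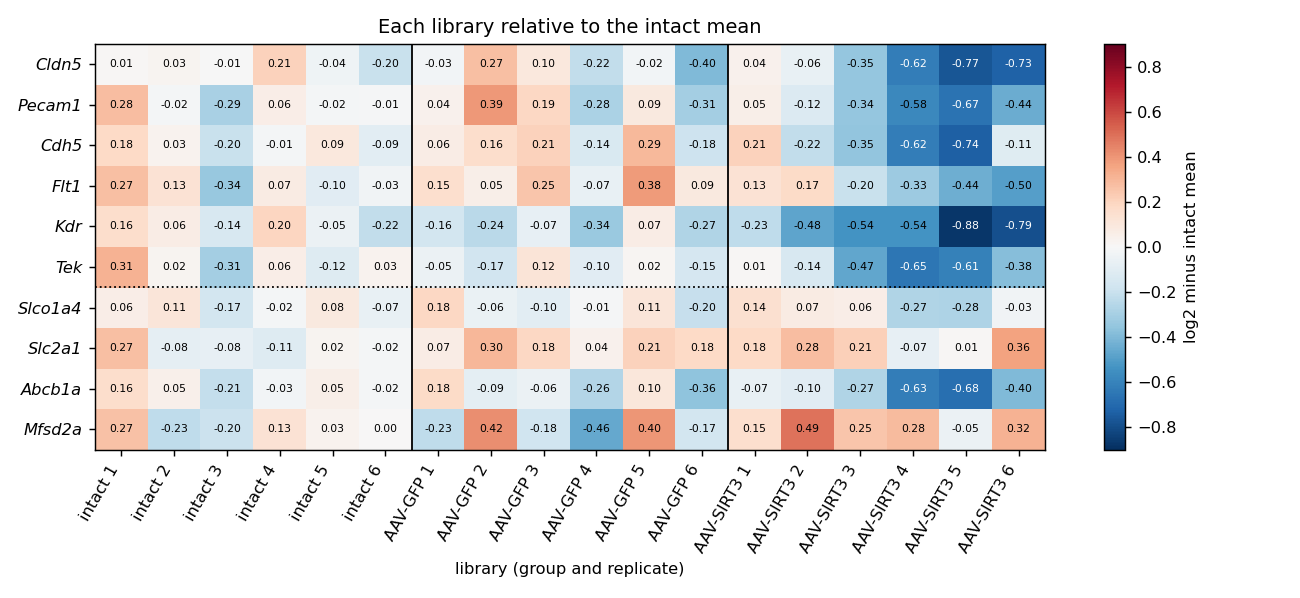
Log2 value of each gene in each of the 18 libraries minus the mean of the intact libraries. Cldn5, Pecam1, Cdh5, Flt1, Kdr, Tek and Abcb1a have their lowest value in AAV-SIRT3 replicate 4, 5 or 6, while Slc2a1 and Mfsd2a are above the intact mean in most AAV-SIRT3 libraries.

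Across the 18 libraries, with each group's mean taken out, the junction and receptor genes varied together. Their 15 pairs had Pearson correlations from 0.57 to 0.85 with a median of 0.73, and all 45 pairs ran from 0.17 to 0.92 with a median of 0.64. The points share library depth and dissection, so these values are a description. Slco1a4 and Abcb1a made the closest pair (r = 0.92, Spearman's rho = 0.91), although Abcb1a fell against intact and Slco1a4 did not pass. Kdr and Slc2a1 were the loosest (r = 0.17, rho = 0.23). Against the mean of the other 9 genes, Abcb1a (0.90), Pecam1 (0.90) and Cdh5 (0.88) correlated the most and Slc2a1 (0.55) and Mfsd2a (0.50) the least.

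Outside the members, the 10 genes closest to their mean pattern over the 18 libraries were picked by correlation. Cxcl12, a chemokine, had the highest correlation (Pearson r = 0.93), followed by Podxl (0.87), which encodes podocalyxin, Cd34 (0.86), Mmrn2 (0.86), Cgnl1 (0.86), Rhoj (0.86), Tinagl1 (0.85), Lrg1 (0.85), Itpripl2 (0.85) and Adgrl4 (0.84). Mmrn2 (multimerin 2, an endothelial matrix protein) and Cgnl1 (paracingulin of cell junctions) fell in AAV-SIRT3 against intact, by 0.45 (adjusted p = 0.0330) and 0.41 (adjusted p = 0.0151). Cgnl1 did not pass without the 3 libraries that fell most with length (-0.36, adjusted p = 0.0616). The other 8 did not pass there, and none of the 10 passed in the other comparisons. Likeness here says nothing of function or control.

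The partners of these genes in the vessel wall were described from 11 vessel lists and a list of astrocyte endfeet. Which cells gave their reads is not known in bulk tissue, so a change in a listed gene need not be one of vessels. Intact means of Tfrc, Tjp1, Slc6a6 and Afdn, for example, were 8787, 7111, 6691 and 5670 normalised reads, beside 1010 for Cldn5. The counts in these lists stand beside the 10.3% of all genes called lower and 11.3% called higher in AAV-SIRT3 against intact, and nothing particular to a list is read from them. Every AAV-SIRT3 library lay below every intact one in 4.32% of all genes tested. Of the genes picked by the naming rule, this held for Afdn, Tjp1, Slc7a1, Slc6a6, Nrp1, Nrp2, Lrp5, Lrp6, Nid2 and Lama2. In AAV-SIRT3 against intact, 3 of 12 junction partners fell and none rose (median -0.064). Afdn (afadin, which ties nectins to actin) fell by 0.34 (SE 0.053, adjusted p = 0.000603), with no overlap between groups. It also fell by 0.23 in AAV-GFP (adjusted p = 0.0300), a call that held in 23 of 30 alternatives. Ocln (occludin) fell by 0.28 and Tjp1 (the junction scaffold ZO-1) by 0.24. Ocln did not pass with the length and GC trend removed (-0.19, adjusted p = 0.0664) or without the 3 libraries that fell most with length (-0.21, 0.0897).

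Of 17 other barrier transporters, 5 fell and 1 rose (median -0.13). Slc22a8 (the organic anion transporter OAT3) fell by 0.57, Slc7a1 (a cationic amino acid transporter) by 0.25, Slc6a6 (the taurine transporter) by 0.23 and Tfrc (the transferrin receptor) by 0.22 (adjusted p = 0.0266). Slc7a1 and Slc6a6 did not overlap between AAV-SIRT3 and intact. Slc7a1 was already lower in AAV-GFP, by 0.24 (adjusted p = 0.0101). Lrp8 also fell, and Slc3a2, the heavy chain of the large amino acid transporter, rose by 0.11; these were named after their values were seen. Slc22a8 was lost without intact replicate 5. Tfrc was lost without AAV-SIRT3 replicate 2 or 5, without the 3 libraries that fell most with length (-0.17, adjusted p = 0.130) and with the length and GC trend removed (-0.11, adjusted p = 0.239).

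In the VEGF and angiopoietin list, 4 of 15 genes fell and 1 rose against intact (median -0.16). Ptprb (the endothelial phosphatase VE-PTP, which acts on TIE2) fell by 0.53 (SE 0.11, adjusted p = 0.00236), Nrp1 and Nrp2 (neuropilins, co-receptors for VEGF and semaphorins) by 0.44 and 0.34, and Tie1, the orphan partner of TIE2, by 0.38. Nrp2 fell by 0.27 in AAV-GFP as well (adjusted p = 0.0243, passing in 23 of 30 alternatives). Tie1 was lost in 6 of 18 fits that left out 1 library, those of intact replicates 2, 4 and 6 and AAV-SIRT3 replicates 4, 5 and 6, and it passed in 21 of 30 alternatives in all. The ligand Vegfa differed by -0.16 (adjusted p = 0.0621), and Vegfb rose by 0.22 (adjusted p = 0.0277), both named after their values were seen.

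Markers of endothelial identity were present throughout, with all 22 above 0 in every group. Of these, 1 fell, Cgnl1, and 2 rose in AAV-SIRT3 against intact (median -0.063). Ly6c1 and Ly6a, surface antigens of the mouse that brain endothelium carries, rose by 0.45 (SE 0.11, adjusted p = 0.00578) and 0.51 (SE 0.14, adjusted p = 0.0156). Every AAV-SIRT3 library had more Ly6c1 than every intact one, at 1379 to 1992 against 1021 to 1282 normalised reads, which 5.01% of all genes tested also showed in that direction. AAV-GFP libraries held 1223 to 2012, close to AAV-SIRT3 (difference 0.041, 95% interval -0.18 to 0.26). The summed level of the list ran from 75366 to 86145 in AAV-SIRT3, 80878 to 85170 in AAV-GFP and 80541 to 89095 in intact libraries. Such a sum follows the genes with the most reads and is no measure of endothelial content. Cd34, Adgrl4 and Cgnl1 of this list averaged only 883, 952 and 1771 normalised reads over the 18 libraries.

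Among 17 genes of Wnt/beta-catenin barrier signalling, 3 fell and 1 rose (median -0.00089). Reck, a co-receptor for WNT7, fell by 0.31, Lrp5, a Wnt co-receptor, by 0.25, and Lrp6, another, by 0.22. Lef1 rose by 0.75 (SE 0.18, adjusted p = 0.00512). It also rose in AAV-GFP, by 0.72 (adjusted p = 0.0378), a call that held in 18 of 30 alternatives. It belongs to the thalamus list as well, in which 7 of 8 genes rose in AAV-SIRT3 against intact. Reck passed in 24 of 30 alternatives. It was lost with the length and GC trend removed (-0.26, adjusted p = 0.0550), without the 3 libraries that fell most with length (-0.30, 0.0824) and without intact replicate 3 or 5 or AAV-SIRT3 replicate 4 or 5. Lrp5 passed in 26 of 30, and was lost without those 3 libraries (-0.22, adjusted p = 0.104) and without intact replicate 1 or 4 or AAV-SIRT3 replicate 6.

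Of the leukocyte adhesion and leaky vessel list, 7 of 9 genes were tested. Ackr1, a chemokine-binding receptor of venules, rose by 0.21 (adjusted p = 0.0422) against intact, and it passed in 9 of 18 fits that left out 1 library and in 18 of 30 alternatives in all. Its intact mean of 1403 normalised reads stood above that of Cldn5, at 1010. The cells that gave the Ackr1 reads are not known in bulk tissue, so its rise need not be one of vessels. None of 11 genes of capillary, arterial and venous segments passed in any comparison. Nr2f2, a venous transcription factor, differed by 0.21 (adjusted p = 0.0941) between AAV-SIRT3 and intact, and by 0.30 (0.0151) with the length and GC trend removed. Hey1, an arterial factor, differed by 0.029.

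The cells and matrix around the endothelium held more falls than rises. In basement membrane genes 6 of 12 fell against intact and none rose (median -0.21), with Nid2 (nidogen-2) lower by 0.77, Hspg2 (perlecan) by 0.66, Nid1 by 0.44 and Lama2 (laminin alpha 2) by 0.40. Col4a1 and Lamc1, which also fell, by 0.22 and 0.20, were named after their values were seen. Nid2 ranged from 128 to 248 normalised reads in intact libraries and from 85.3 to 118 in AAV-SIRT3, with no overlap. The summed level of this list, most of it from Sparc (SPARC, a matrix protein), was 95773 to 102128 in AAV-SIRT3 and 92288 to 103752 in intact libraries. Of 11 pericyte genes, Atp13a5 fell by 0.32, Pdgfrb, the receptor for PDGF-B, by 0.30 and Notch3 by 0.22, and none rose (median -0.20). Atp13a5 and Notch3 did not pass without the 3 libraries that fell most with length (-0.28, adjusted p = 0.0636, and -0.16, adjusted p = 0.108). Notch3 was also lost without intact replicate 3 (adjusted p = 0.0517) and without AAV-SIRT3 replicate 5 (0.0545).

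Smooth muscle genes had 0 of 6 past the threshold, with Mylk at -0.012 and Acta2, smooth muscle actin, at -0.25 (adjusted p = 0.548) against intact. Vascular fibroblast genes had 1 of 6, Slc6a13, a GABA and taurine transporter, which fell by 0.76 (SE 0.23, adjusted p = 0.0212; median of the list -0.42). It was lost without intact replicate 5 and without AAV-SIRT3 replicate 5. Among 7 astrocyte endfoot genes, Dag1 (dystroglycan) fell by 0.16 and none rose. No gene of the vessel or endfoot lists passed in AAV-SIRT3 against AAV-GFP by limma. DESeq2 called 4 of these genes there as lower, Ocln, Nrp1, Lama2 and Aqp4 (aquaporin-4), with log2 differences of -0.28, -0.26, -0.28 and -0.34. Over all genes tested it called 304 there, 156 of them as lower.

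**Figure D5:**
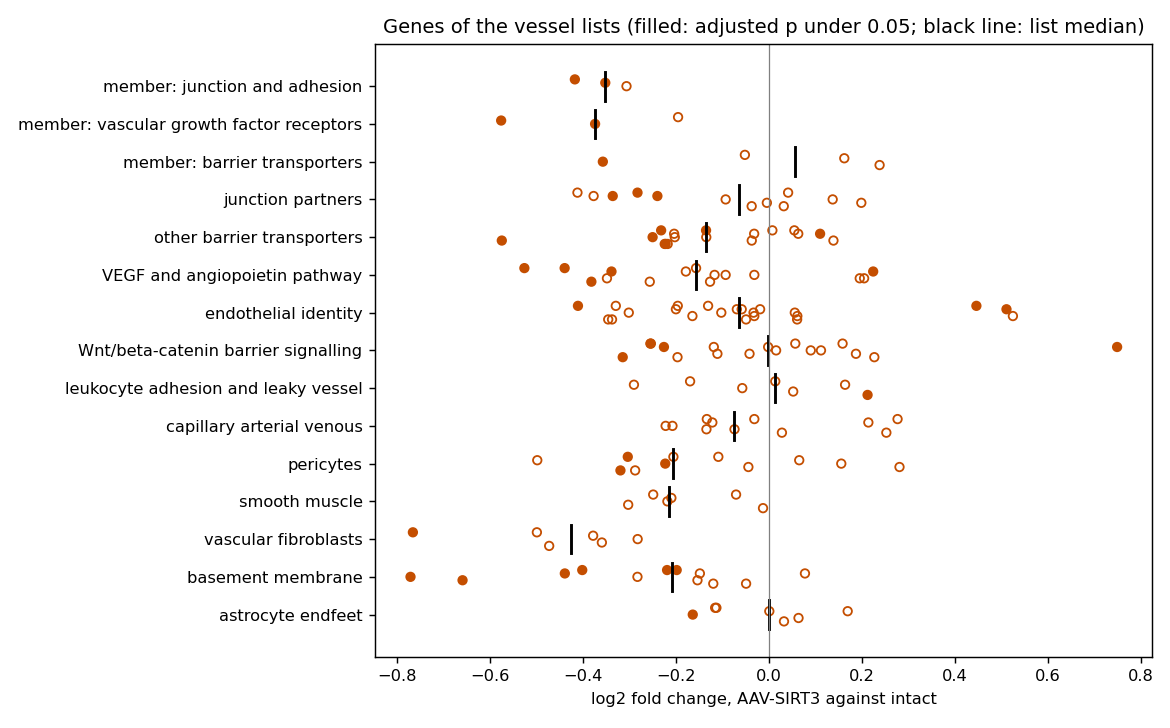
Log2 fold change, AAV-SIRT3 against intact, of each tested gene in the 3 member groups and the vessel and endfoot lists; filled points have a limma adjusted p under 0.05 and black lines are list medians. The junction and receptor members sit left of 0, the basement membrane genes reach -0.77, and Ly6a, Ly6c1 and Lef1 stand to the right.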

How the data were processed

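Poly-A RNA of the substantia nigra was sequenced in 18 libraries, 6 per group. Per the labels' protocols, libraries were made with a stranded Illumina mRNA kit from RNA of high integrity and read in pairs of 100 bases. The submitters' processing notes name HISAT2 2.1.0, DESeq2 1.34.0 and mm10. The authors' deposited values are a signal per gene, which the name of the table describes as HTSeq counts normalised by DESeq2. Annotation and strand setting are not given in the sources used here. Each deposited column was a set of whole reads divided by 1 size factor, since 100% of values above 0 came out whole (tolerance 0.001), although for intact replicate 4 and AAV-SIRT3 replicate 4, with factors close to 1, this is a weaker check. The members had 343 to 6402 reads per library, a counting error of 5.40% to 1.25%, which covers counting alone because reads are not independent molecules.

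Tests used limma 3.58.1 in R 4.3.3 with a trend on log2(value + 1), for genes with at least 10 normalised reads in at least 6 libraries, with 3 groups in 1 model and 15 residual degrees of freedom. Fold changes are on that scale, and p-values were adjusted by Benjamini-Hochberg over all 19443 genes at 0.05. Each test was repeated with the recovered reads in edgeR 4.0.16 or DESeq2 1.42.0, with trends of exon length and GC content taken out, with a replicate block, with the 2 compared groups alone and without each library in turn. Further repeats used quantile normalisation or TMM factors, pseudocounts of 10 or 0.5, and either a minimum mean of 50 or no filter. A fit without the 3 libraries falling most with exon length was added after seeing the data. The procedure was tested on simulated data. Positions, exon lengths and GC content came from GENCODE M21 (GRCm38, the assembly of mm10), which matched 49090 of 55270 symbols and 96.8% of the tested genes. Motifs were counted on both strands of RefSeq promoters.

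The members and the 19 other lists were chosen with earlier results of these data known, and 3 genes of the lists are not reported here. Named beside the members were up to 4 genes past the threshold in each vessel or endfoot list and comparison with the largest fold change, and, for vessel lists with none, the 2 with the largest mean. The likeness measure was Pearson's r, over 18 libraries and with group means removed, between a gene and the mean of the members.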

Additional observations from a re-analysis of the deposited data

Results flagged for a closer look

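In 126 groups of 6 values, the members and the other named genes in each group, the gap of the highest or lowest library to its nearest neighbour exceeded Dixon's 95% critical value in 8, beside the 6.30 that chance gives at 1 in 20. Of the members, Slc2a1 was among them, in intact replicate 1, at 5726 normalised reads, above the next at 4822. The same library was highest for Cgnl1, at 2829 against 1965, and for Lama2, at 1612 against 1301, and lowest for Nr2f2, at 1702 against 2472. It also had the steepest rise of values with exon length, 0.025 log2 units per doubling, and its part in these values was not tested. AAV-SIRT3 replicate 6 was lowest for Lrp5, at 430 against 474, and for Slc6a6, at 4898 against 5718. Dag1 was lowest in intact replicate 5, at 5952 against 6342. In AAV-GFP, Ptprb was highest in replicate 1, at 2220 against 1965.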

How the results depend on the processing

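Kdr passed against intact in all 30 alternatives, and Tek and Abcb1a in 29, the exception being the fit without the 3 libraries falling most with exon length (-0.31, adjusted p = 0.0800, and -0.27, adjusted p = 0.111). Cldn5 passed in 26 and Pecam1 in 14. For AAV-SIRT3 against intact, 5 members passed and 1 in that last fit, and leaving out 1 library gave 3 to 6, with 3 without intact replicate 4, AAV-SIRT3 replicate 5 or AAV-SIRT3 replicate 6. For AAV-SIRT3 against AAV-GFP, 0 members passed, 1 by DESeq2 and 0 to 1 when 1 library was left out; for AAV-GFP against intact, 0 in every alternative. Over all genes, AAV-SIRT3 against AAV-GFP gave 22 calls (7 higher, 15 lower), 304 by DESeq2 (148 higher, 156 lower), 8 with only the 2 groups (1 higher), 13 with the replicate block, 156 with the length and GC trend removed (119 higher, 37 lower) and 5 to 861 without 1 library (861 without AAV-GFP replicate 2, 5 without AAV-SIRT3 replicate 5, 9, 10, 12, 10 and 38 without AAV-GFP replicates 1, 3, 4, 5 and 6). AAV-GFP against intact gave 358 calls, 164 with no filter, 1000 by DESeq2, 199 with only the 2 groups, 551 with the length and GC trend removed (325 higher, 226 lower), 214 without the 3 libraries, and 129 to 686 without 1 library (129, 140, 161 and 540 without intact replicates 3, 4, 5 and 6, and 686, 168, 139 and 158 without AAV-GFP replicates 1, 2, 3 and 5). AAV-SIRT3 against intact stayed between 3279 and 4633 without 1 library and gave 2929 without the 3.

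Differences near 0 changed sign. With the length and GC trend removed, Slco1a4 was 0.031 against AAV-GFP and 0.056 against intact in AAV-SIRT3, and 0.025 in AAV-GFP against intact. Without the 3 libraries it was 0.0056 and 0.0022 in the 2 comparisons of AAV-SIRT3. For AAV-SIRT3 against AAV-GFP, Slc2a1 was 0.0025 by edgeR, 0.0044 by DESeq2, 0.0096 with the trend removed and 0.015 without the 3 libraries, Hey1 0.0095 and 0.012 in the last pair of settings, Slc7a1 0.021 with the trend removed, and Mylk 0.021 without the 3 libraries. Mylk was 0.029 with the trend removed and 0.046 without the 3 libraries against intact. Tfrc, at 0.0020 in AAV-SIRT3 against AAV-GFP, was -0.015 with quantile normalisation. In AAV-GFP against intact, Pecam1 was -0.056 and Acta2 -0.073 without the 3 libraries. Leaving out 1 library gave these ranges in AAV-GFP against intact: Cldn5 -0.11 to 0.019, Pecam1 -0.056 to 0.084, Tek -0.12 to 0.0059, Slco1a4 -0.052 to 0.026, Mfsd2a -0.13 to 0.047, Acta2 -0.073 to 0.21 and Mylk -0.024 to 0.099. In AAV-SIRT3 against AAV-GFP they were -0.077 to 0.0074 for Slco1a4, -0.040 to 0.046 for Slc2a1, -0.024 to 0.028 for Hey1, -0.034 to 0.086 for Lef1, -0.027 to 0.12 for Ly6c1, -0.11 to 0.012 for Mylk, -0.042 to 0.0095 for Slc7a1 and -0.055 to 0.041 for Tfrc. Mylk ran from -0.080 to 0.043 in AAV-SIRT3 against intact. The cause of these changes was not tested.

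No pairing by replicate number was seen: same-numbered libraries had correlations from -0.095 to 0.175, and 1 of 18 correlated best with its own number. The labels used here do not say what the number marks, so a shared litter, day or batch could still exist. The replicate block left 5 members called in AAV-SIRT3 against intact and 0 in the other comparisons.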

Other observations

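Some vessel genes that the naming rule leaves out are given here, chosen after their values were seen. Aqp4 and Icam2 had lower means under SIRT3 virus than under GFP virus, and neither passed with limma. Aqp4, the water channel of astrocyte endfeet, had 18883 ± 2002 normalised reads in AAV-SIRT3, 23900 ± 3390 in AAV-GFP and 20406 ± 2212 in intact libraries (SD, n = 6 each). It differed by -0.33 between AAV-SIRT3 and AAV-GFP (limma adjusted p = 0.108, DESeq2 adjusted p = 0.0170), with 3 of 36 library pairs higher in AAV-SIRT3. Icam2, an adhesion molecule of resting endothelium, had 78.6 ± 26.3, 115 ± 12.3 and 93.2 ± 27.5 normalised reads in the same order, a difference from AAV-GFP of -0.63 (adjusted p = 0.209). Plvap, a protein of fenestrated vessels that barrier endothelium largely lacks, stood at 506 ± 40.8, 508 ± 57.4 and 488 ± 48.1. Its difference between AAV-SIRT3 and AAV-GFP was -0.0029 (95% interval -0.17 to 0.17). The paralog Abcb1b, a second gene for P-glycoprotein, differed by -0.031 (95% interval -0.28 to 0.22, adjusted p = 0.881) between AAV-SIRT3 and intact, where Abcb1a fell.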
